A study of Bos taurus with 12 samples.

Results

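Genes of the insulin-like growth factor (IGF) system were read in expanded cattle blastocysts of known sex. The ligand gene IGF2, the receptor genes IGF1R and INSR, the binding protein genes IGFBP2, IGFBP3, IGFBP4 and IGFBP7, and the RNA-binding protein genes IGF2BP1, IGF2BP2 and IGF2BP3 were taken by symbol from a table of 32637 genes. All 10 were listed, and 9 of them had enough counts for a test between the sexes.

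The embryos were Bos taurus embryos produced by fertilization in vitro of oocytes from slaughterhouse ovaries, with semen of a pair of bulls used in rotation. Each expanded blastocyst was cut, one piece was sexed by PCR and the other was kept for RNA, so that each piece held both inner cell mass (ICM) and trophectoderm. A library was made from 2 pieces of the same sex, which gave 6 female and 5 male libraries with no other treatment or genotype. The paper collected expanded blastocysts on consecutive days of culture, and the labels do not tie libraries to a day. The comparison asks which transcripts differ between male and female embryos before the gonads form. Because the libraries are bulk RNA from cut embryos, fewer cells of a type and less RNA per cell cannot be told apart.

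In this system the ligands IGF1 and IGF2 bind the receptor tyrosine kinase IGF1R, and insulin and IGF2 bind the related receptor INSR, after which adaptor proteins carry the signal to the PI3K-AKT and RAS-MAPK routes. Secreted IGF-binding proteins hold the ligands outside the cell and set how much of them reaches the receptors. The IGF2BP proteins are of another kind, since they bind messenger RNA in the cytoplasm, among them the IGF2 message, and they are known as fetal proteins that are abundant in germ cells and embryos. IGF signals are known in cattle and other mammals to promote the growth and survival of preimplantation embryos.

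Counted reads ranged from 6664112 to 16162985 in the female libraries and from 9942952 to 21392764 in the males. A CPM value is the share of a library that a gene took, multiplied up to one fixed library size after scaling with TMM factors. Markers of the cell types of a blastocyst were present. Of 7 ICM markers, 6 were in the table and each had counts in every library, with a summed level of 560 to 980 CPM in females and 792 to 1076 CPM in males. LIN28A was among them and is also a pathway gene. All 10 trophectoderm markers also had counts in every library, at 7879 to 23154 CPM in females and 9195 to 36145 CPM in males. The 7 hypoblast markers summed to 228 to 621 CPM in females and 208 to 467 CPM in males, and the 7 markers of cumulus cells, which surround the oocyte, to 7.19 to 32.7 CPM and 5.38 to 29.5 CPM. The markers tested between the sexes were 6 for ICM, 10 for trophectoderm, 5 for hypoblast and 3 for cumulus cells. None was called different, where 1.91% of all tested genes were called. Only PTGS2 and CYP19A1 had an unadjusted edgeR p under 0.05, at 0.00619 and 0.0153, both with lower fitted levels in males. Male replicate 5 had the highest trophectoderm sum and the lowest hypoblast sum, female replicate 3 had the lowest trophectoderm sum and the highest hypoblast sum.

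None of the 9 tested genes was called different between male and female blastocysts. A gene was called at a Benjamini-Hochberg adjusted p under 0.1 and a fold change over 1.5 in edgeR's quasi-likelihood test, which called 245 of 12802 tested genes, or 1.91%. The number of the 9 with an unadjusted p under 0.05 was 0 as well, against 13.2% of all tested genes, and DESeq2 called 0 of the 9 to which it gave an adjusted p, against 4.17% of all such genes. In no tested gene of the 9 did every library of one sex lie above every library of the other, an arrangement found in 3.31% of the tested genes. The fitted log2 fold change, male over female, was above 0 for 6 genes and below 0 for 3, with a median of 0.09 beside 0.01 for all tested genes. Without male replicate 5 it was above 0 for 3 and below 0 for 6, with a median of -0.10 beside -0.02 for all genes tested in that fit.

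The width of the intervals differed between the genes. For 1 of the 9, IGF2BP3, the 95% interval of the difference lay within a 1.5-fold change in either direction. The intervals of 4 genes lay within a 2-fold change, and those of INSR, IGFBP2, IGFBP4, IGFBP7 and IGF2BP2 reached beyond it. Differences over 2-fold in at least one direction thus lay within the intervals of these 5 genes.

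**Figure D1:**
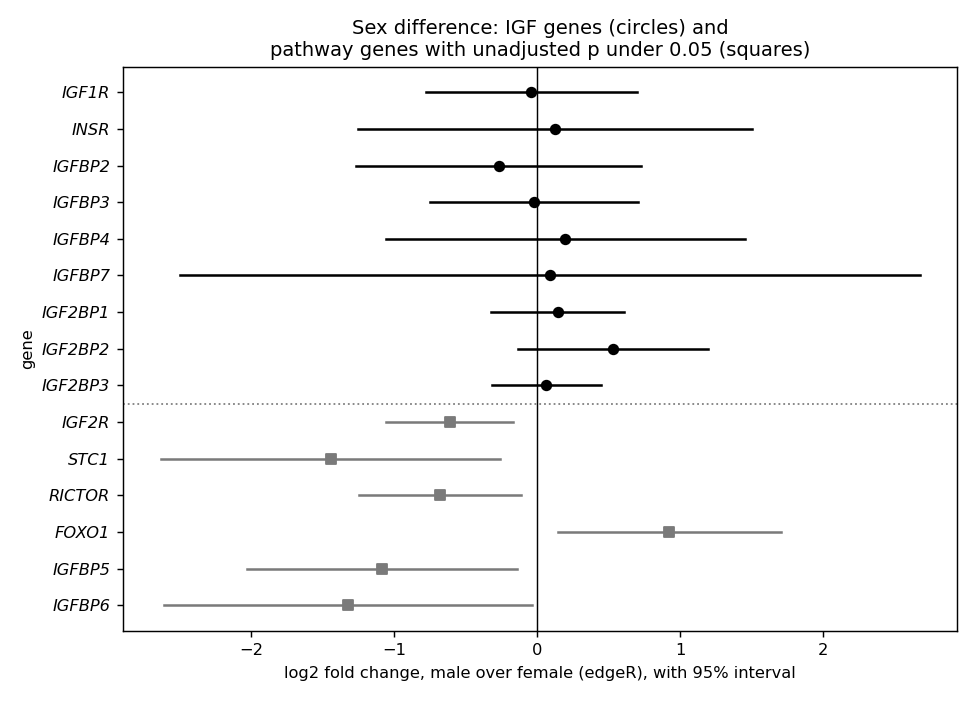
Log2 fold change (male over female, edgeR), with symbols for the estimate and bars for the 95% confidence interval. Circles above the dotted line are the 9 genes, whose intervals all include 0. Squares beneath it are the 6 pathway genes with an unadjusted p under 0.05, none of them called after adjustment in this fit.

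IGF2, the growth factor of the fetal period that is expressed from the paternal copy in many tissues, was close to undetected. The gene lies on chromosome 29 at 49395153 to 49422472 (ARS-UCD2.0, as are all positions given here), and the microRNA gene MIR483 lies within it. Its count was 0 in 9 of the 11 libraries, 3 in female replicate 6 and 1 in male replicate 4, or 4 reads in all. A count of 0 allows up to 3 counts, which corresponded to 0.145 to 0.411 CPM depending on the library, a limit that covers counting error only. Both nonzero libraries were at or under that limit, so no fold change was taken (two-sided exact permutation test of the CPM, p = 1).

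The neighbours of IGF2 on chromosome 29 were not detected either. H19, the noncoding RNA of the maternal copy, and INS, which encodes insulin, had 0 counts in all 11 libraries. IGF1, the other IGF ligand, had at most 3 counts in any library. The reads were from poly(A) RNA, and no ligand gene of the system passed the filter on low counts.

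IGF1R, the main receptor of both IGFs, was detected in every library and at a similar level in both sexes. It lies on chromosome 21 at 7780293 to 8087168 and overlaps PGPEP1L and a pair of noncoding RNA genes, and whether reads were counted by strand was not given in the sources used here. Its counts were between 15 and 75 per library. In females its level ranged from 2.28 to 3.85 CPM with a median of 3.19, and in males replicates 1 to 5 had 2.98, 1.59, 3.80, 2.38 and 3.63 CPM. Male replicate 2 was the lowest of all libraries, and the other males lay among the females. The log2 fold change was -0.04 (SE 0.34, 95% interval -0.78 to 0.70, edgeR adjusted p = 0.977).

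INSR, the insulin receptor, varied much more. It lies on chromosome 7 at 16054185 to 16200493 and overlaps a noncoding RNA gene. Female levels ran from 1.75 to 8.43 CPM with a median of 2.79, and male replicates 1 to 5 had 5.46, 5.07, 4.89, 3.10 and 0.194 CPM. The first 4 males lay close together and within the female range, whereas male replicate 5 held only 4 INSR counts in the most deeply sequenced library, and female replicate 3 held the highest level. Between the highest and the lowest library the ratio was 43.5, and 4.81 when male replicate 5 was left out. The log2 fold change was 0.12 (SE 0.63, 95% interval -1.25 to 1.5, edgeR adjusted p = 0.962), and 0.54 without that library.

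The balance between the receptors also varied between libraries. For every 100 IGF1R counts there were 61.3 to 237 INSR counts in females, with a median of 106, and 5.33 to 320 in males, with a median of 130. Male replicate 5, with the lowest INSR level, gave the lowest of these ratios, and male replicate 2, with the lowest IGF1R level, gave the highest. These ratios compare libraries and not the amounts of the receptors, since the lengths of the transcripts were not taken into account.

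IGFBP3, which carries most of the IGF in the blood, was the binding protein gene with the steadiest level over the libraries. It lies on chromosome 4 at 76116379 to 76124833 and overlaps no other annotated gene. The female range was 8.83 to 31.5 CPM with a median of 24.4, and male replicates 1 to 5 had 19.9, 31.5, 13.9, 24.1 and 16.6 CPM. All males lay inside the female range, whose lowest value was that of female replicate 1. Males and females differed by a log2 fold change of -0.02 (SE 0.33, 95% interval -0.75 to 0.70, edgeR adjusted p = 0.988).

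IGFBP2, a binding protein with a preference for IGF2, lies on chromosome 2 at 104619962 to 104648632, 7542 bases from IGFBP5. Its level in females was 1.07 to 7.85 CPM with a median of 2.45, and male replicates 1 to 5 had 3.39, 1.27, 5.92, 0.795 and 1.07 CPM. Low and high libraries were found in both sexes, with female replicate 3 the highest and male replicate 4 the lowest. A difference between the sexes was not found (log2 fold change -0.27, SE 0.46, 95% interval -1.26 to 0.73, edgeR adjusted p = 0.857). Within the 3 library numbers, the first number of a library's name, males were higher in 1 and lower in 2.

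IGFBP4, known to restrain IGF action until the protease PAPPA cleaves it, lies on chromosome 19 at 40672669 to 40684257. Levels of 0.901 to 7.43 CPM with a median of 3.92 were measured in females, and of 3.81, 5.07, 2.64, 2.15 and 9.64 CPM in male replicates 1 to 5. The highest library was male replicate 5 and the lowest female replicate 5, and the other 9 overlapped. On the log2 scale the difference was 0.20 (SE 0.58, 95% interval -1.06 to 1.46, edgeR adjusted p = 0.922). Without male replicate 5 it was -0.37, on the other side of 0.

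IGFBP7, a related secreted protein that binds IGFs weakly and is deposited around cells, had the largest SD within sex on the log2 scale among the 9 genes. It lies on chromosome 6 at 72405517 to 72485427, shares 81 bases with POLR2B and overlaps another annotated gene as well. Its level was 0.500 to 19.3 CPM in females with a median of 3.36, and 1.57, 1.27, 3.73, 1.67 and 18.8 CPM in male replicates 1 to 5. One library of each sex, female replicate 3 and male replicate 5, stood above 18 CPM, and the next highest in either sex was female replicate 1 at 7.39 CPM. The ratio of the highest to the lowest library was 38.6, and 5 to 387 counts lay behind the values. The log2 fold change of 0.09 had an SE of 1.19 and a 95% interval from -2.49 to 2.67 (edgeR adjusted p = 0.987), and it was -0.98 without male replicate 5. The 2 libraries that shared the high IGFBP7 level had opposite marker sums. The hypoblast sum was 621 CPM in female replicate 3 and 208 CPM in male replicate 5. PDGFRA alone gave 337 CPM in female replicate 3 and 17.9 CPM in male replicate 5. The listed hypoblast markers did not all follow the sum. COL4A1 and GATA6 were also highest in female replicate 3. However, GATA4, HNF4A and FOXA2 were highest in male replicate 2, and SOX17 was highest in female replicate 4. The part of cell composition in the IGFBP7 level was not tested.

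**Figure D2:**
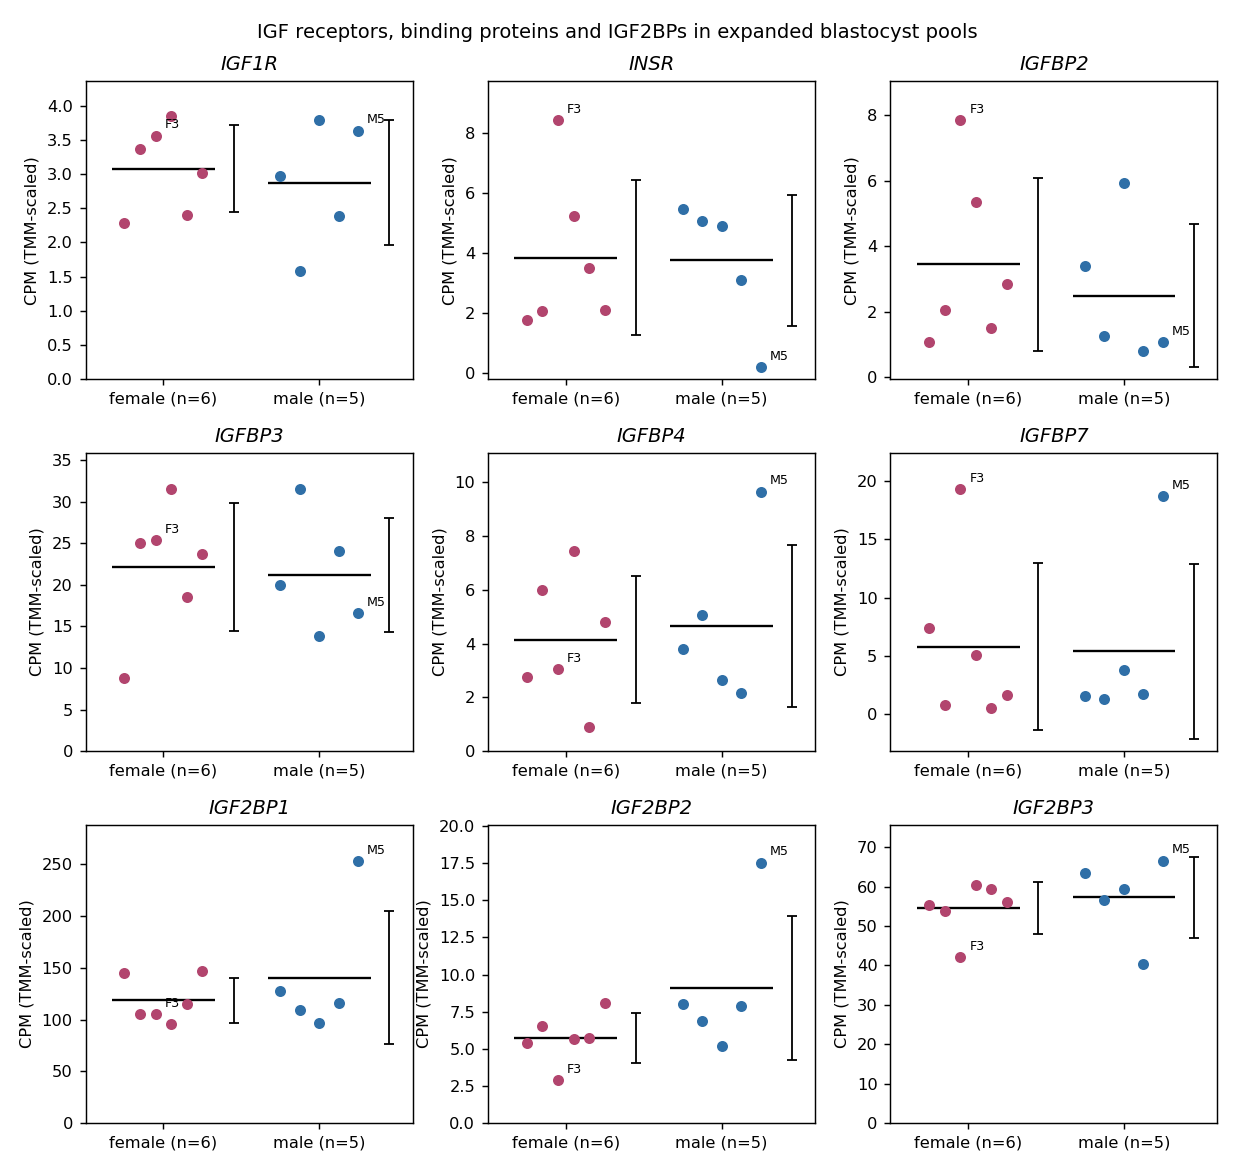
Level in CPM (scaled with TMM factors) of each tested gene in the 6 female and 5 male libraries, with a point for each library, a horizontal line for the mean and a bar beside it for the SD. Female replicate 3 (F3) and male replicate 5 (M5) are marked, and the sexes overlap in all 9 panels.

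The 3 IGF2BP genes were all detected in every library. IGF2BP1, which protects bound messages from decay and takes part in their localization, lies on chromosome 19 at 37497068 to 37544059 and was read with 695 to 5231 counts per library. Its level was 95.6 to 147 CPM in females with a median of 110, and 127, 110, 96.3, 116 and 253 CPM in male replicates 1 to 5. All male libraries except replicate 5 lay inside the female range. Females averaged 119 ± 21.8 CPM (SD, n = 6), males 141 ± 64.1 CPM (SD, n = 5), and males without replicate 5 112 ± 13.0 CPM. This gave a log2 fold change of 0.14 (SE 0.21, 95% interval -0.32 to 0.61, edgeR adjusted p = 0.832), and -0.10 without that library.

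IGF2BP2, which binds the IGF2 message and messages of metabolic and mitochondrial proteins, had the largest difference of the 9 on the log2 scale, but it was not called. The gene lies on chromosome 1 at 81402074 to 81573565. Female levels ran from 2.91 to 8.06 CPM with a median of 5.67, and male replicates 1 to 5 had 8.03, 6.87, 5.15, 7.87 and 17.5 CPM. Male replicate 5 lay above every female, female replicate 3 lay below every male, and the remaining libraries overlapped. The log2 fold change was 0.53 (SE 0.30, 95% interval -0.13 to 1.19, edgeR adjusted p = 0.496), with males higher within 3 of 3 library numbers by 0.32 to 0.78 on the log2 scale. Without male replicate 5 the log2 fold change was 0.28.

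IGF2BP3, which binds messages of growth and cell cycle genes, was the most even gene of the set. It lies on chromosome 4 at 31943616 to 32088163. Levels of 42.0 to 60.4 CPM with a median of 55.7 were found in females, and male replicates 1 to 5 had 63.5, 56.5, 59.3, 40.3 and 66.6 CPM. The highest library was 1.65 times the lowest, and female libraries averaged 54.5 ± 6.61 CPM (SD, n = 6) against 57.2 ± 10.2 CPM (SD, n = 5) for the males. From these values the log2 fold change was 0.06 (SE 0.17, 95% interval -0.32 to 0.44, edgeR adjusted p = 0.916).

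The proportions among the IGF2BP genes shifted between libraries more than IGF2BP3 itself did. Per 100 IGF2BP1 counts there were 38.2 to 63.2 IGF2BP3 counts in females, with a median of 45.5, and 26.3 to 61.6 in males, with a median of 49.9. Male replicate 5 was the lowest, a library that was highest for both genes but further above the others for IGF2BP1. Per 100 IGF2BP1 counts there were 2.76 to 6.17 IGF2BP2 counts in females, with a median of 5.23, and 5.35 to 6.92 in males, with a median of 6.30, so that male replicate 5 did not stand apart in this proportion.

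The spread among libraries of the same sex set the genes apart more than sex did. On the log2 CPM scale the SD within sex was 1.75 for IGFBP7, and 98.9% of all tested genes had a smaller one. INSR followed with 1.3, larger than in 94.3% of tested genes, then IGFBP2 with 1.08 and IGFBP4 with 0.94. The place of INSR leaned on male replicate 5. Without that library the ratio of the highest to the lowest library was 4.81 for INSR, 9.88 for IGFBP2 and 8.25 for IGFBP4. IGFBP3 and IGF2BP2 had SDs of 0.57 and 0.56. IGF2BP1 at 0.41, IGF1R at 0.39 and IGF2BP3 at 0.24 were below the median of 0.48 over all tested genes, and only 9.76% of tested genes had a smaller SD than IGF2BP3. Counts per gene differ, and a gene with few counts has a larger counting error in its SD.

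Male replicate 5 and female replicate 3 held many of the extreme values. Male replicate 5 was the highest of the 11 libraries for 4 of the 9 tested genes, IGFBP4, IGF2BP1, IGF2BP2 and IGF2BP3, and the lowest for INSR. It was also the highest library for 24.9% and the lowest for 26.8% of all tested genes, so extremes were common in it throughout. Female replicate 3 was the highest for INSR, IGFBP2 and IGFBP7, where it was the highest for 9.32% of all tested genes, and the lowest for IGF2BP2. The summed trophectoderm markers stood at 36145 CPM in male replicate 5 and at most at 20252 CPM in the other males. KRT8 alone gave 20142 CPM in male replicate 5, which was the highest library for CDX2, DAB2, KRT8 and KRT18. Female replicate 1 was the highest for GATA2, GATA3, PTGS2, TFAP2A and TFAP2C, and male replicate 2 for LGALS3. Whether cell composition has a part in the levels above was not tested.

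**Figure D3:**
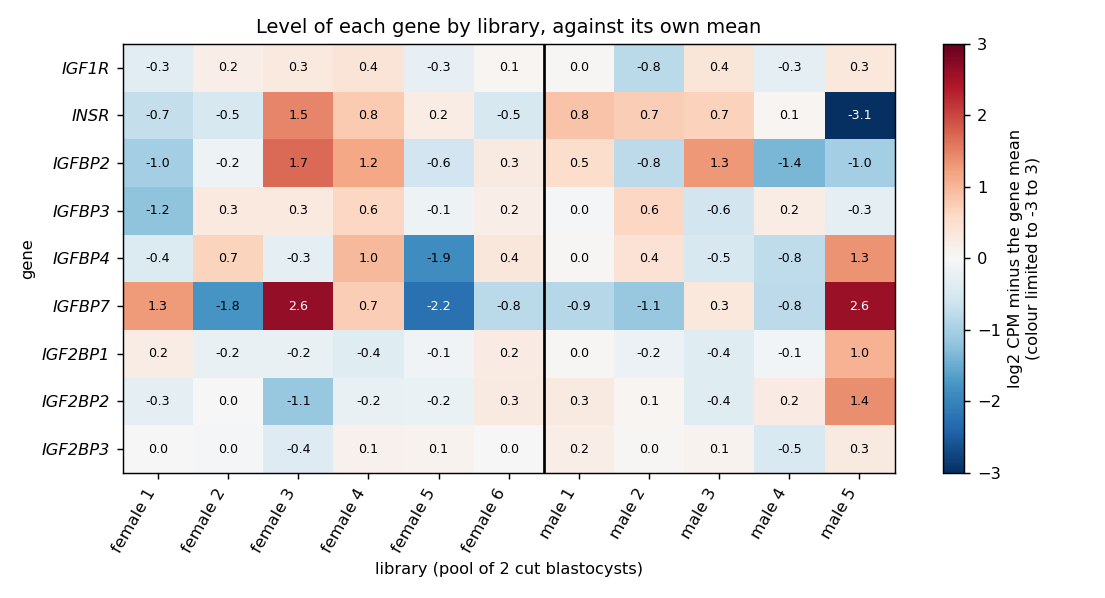
Log2 CPM of each tested gene (rows) in each library (columns) minus the mean of that gene over the 11 libraries, with red above and blue below the mean and the value printed in each cell. Male replicate 5 is lowest for INSR and high for IGFBP7, IGF2BP1 and IGF2BP2, and female replicate 3 is high for INSR, IGFBP2 and IGFBP7 and low for IGF2BP2.

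Pairs of the 9 genes moved together or apart over the 11 libraries without a common pattern. Of 36 pairs, 19 had a positive Pearson correlation of log2 CPM, with a median of 0.07. The highest was 0.783 for IGF2BP1 with IGF2BP2, which was 0.279 without the 2 libraries farthest from the median of IGF2BP1. The lowest was -0.889 for INSR with IGF2BP1, which was -0.605 without the 2 libraries farthest from the median of INSR. These are descriptions, and the points share the depth and the cell composition of their library.

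Among all tested genes, those whose pattern over the 11 libraries was most like that of a member were found by the same correlation. IGF2BP1 was most like WDR83 and GGA2, at 0.987 and 0.982, values that were 0.955 and 0.938 without male replicate 5. INSR was most like the histone methyltransferase gene KMT2A at 0.962 and the amino acid transporter gene SLC38A2 at 0.948. Without the 2 libraries farthest from the median of INSR these were 0.849 and 0.721. IGF2BP2 was most like ADISSP at 0.940 and GOT2, which encodes the mitochondrial aspartate aminotransferase, at 0.935. Without the 2 libraries farthest from the median of IGF2BP2 these were 0.645 and 0.728. IGFBP2 was nearest to RRN3, at 0.931, and MYCBP2, at 0.930, and IGFBP4 had NFYA among its nearest, at 0.927. With the 2 farthest libraries of each member left out, these were 0.901, 0.866 and 0.767.

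The remaining genes had partners at somewhat lower values. IGF1R was most like CTU1 at 0.927 and the immunoproteasome gene PSMB8 at 0.912, and IGFBP7 was most like FANCC at 0.926 and GJA1, which encodes connexin 43, at 0.902. IGFBP3 was most like SPRY4, a feedback inhibitor of receptor tyrosine kinase signals, at 0.889 and LMO4 at 0.887. With the 2 farthest libraries of each member left out, CTU1 and PSMB8 were at 0.890 and 0.804. FANCC and GJA1 were then at 0.838 and 0.739, and SPRY4 and LMO4 at 0.905 and 0.766. For IGF2BP3 the likeness to RAB40C moved from 0.865 to 0.744 without the 2 libraries farthest from the median. The genes named here were chosen among all tested genes for their high correlation.

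The other genes of the pathway gave the setting in which these genes were read. Of 71 such genes in the table, 58 were tested, and edgeR called 0 of them, where the share over all genes was 1.91%. At an unadjusted p under 0.05 there were 6 of the 58, against 13.2% of all tested genes, and 5 had lower and 1 had higher fitted levels in males. DESeq2 with the library number called 1 of 63 (4.17% over all genes), STC1, which encodes a secreted inhibitor of the proteases that cleave IGF-binding proteins, and without the library number it called 3 of 62 (4.62% over all genes). When edgeR kept any gene with a count it called 3 of 69, IGFBP5, HMGA2 and STC1 (3.11% over all genes). STC1 was at 3.03 to 15.7 CPM in females with a median of 6.55, and at 2.40, 2.75, 0.837, 4.05 and 3.73 CPM in male replicates 1 to 5. The males lay at the lower end of the female range or under it, with a log2 fold change of -1.44 (SE 0.55, edgeR adjusted p = 0.276, DESeq2 adjusted p = 0.0776 with the library number), and of -0.95 without male replicate 3. The median log2 fold change of the 58 was -0.06, with 33 fitted values below 0 and 25 above. Without male replicate 5, 43 of 57 were below 0 and 14 above, with a median of -0.16, and 10 had an unadjusted p under 0.05 with 0 called. Over all 12954 genes tested in that fit, 6718 were below 0 and 6236 above, with a median of -0.02. Of these, 2098 had an unadjusted p under 0.05 and 364 were called.

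Among the receptors and binding proteins outside the set, IGF2R, IGFBP5 and IGFBP6 had unadjusted p under 0.05 and lower average levels in males. None was called by edgeR with the filter on low counts. IGFBP5 was called by DESeq2 without the library number (DESeq2 adjusted p = 0.0541). It was also called by edgeR when any gene with a count was kept (edgeR adjusted p = 0.0407). IGF2R, the receptor that takes IGF2 up for degradation, averaged 24.6 ± 3.85 CPM (SD, n = 6) over the females, with a range of 19.1 to 28.6, and stood at 19.8, 18.1, 24.8, 10.7 and 8.43 CPM in male replicates 1 to 5. Male replicates 1 and 3 overlapped the females and the other 3 lay below them. Its log2 fold change was -0.61 (SE 0.20, 95% interval -1.06 to -0.17, edgeR adjusted p = 0.218), with males lower within 3 of 3 library numbers.

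IGFBP5, the neighbour of IGFBP2 on chromosome 2, was at 5.80 to 31.9 CPM in females with a median of 18.0, and at 5.63, 8.03, 4.38, 7.55 and 13.6 CPM in male replicates 1 to 5. Female replicate 5 lay among the lower males, and male replicate 5 lay among the females. Its log2 fold change was -1.09 (SE 0.43, edgeR adjusted p = 0.302), and -0.66 without male replicate 3. That of IGFBP2 was -0.27. IGFBP6, a binding protein with a strong preference for IGF2, was at 2.61 to 13.6 CPM in females with a median of 3.46, and at 0.662, 2.43, 1.03, 1.35 and 4.12 CPM in males, with a log2 fold change of -1.32 (SE 0.59, edgeR adjusted p = 0.364), or -0.87 without male replicate 3. Male replicate 5 was the only male above the lowest female. IGFBP1 had at most 1 count in any library.

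The downstream genes showed the same absence of calls. The adaptor genes had 0 of 7 at an unadjusted p under 0.05, with SOS1, a RAS activator, at the smallest p and a log2 fold change of -0.60 (SE 0.32, edgeR adjusted p = 0.454). The receptor substrates IRS1 and IRS2 had log2 fold changes of 0.25 and -0.54. Of 12 PI3K and AKT genes none was under 0.05, and PIK3CA, the catalytic subunit, averaged 65.1 ± 7.54 CPM (SD, n = 6) over female and 48.3 ± 22.1 CPM (SD, n = 5) over male libraries.

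Of 13 mTOR genes 1 had an unadjusted p under 0.05, RICTOR, the scaffold of mTOR complex 2. It was at 34.0 to 44.7 CPM in females and at 33.8, 17.1, 44.1, 16.3 and 12.8 CPM in male replicates 1 to 5. Males 1 and 3 were near or among the females and the other 3 lay well below them (log2 fold change -0.68, SE 0.26, edgeR adjusted p = 0.282). FOXO1, the transcription factor that AKT holds out of the nucleus, went the other way, with 2.51 to 11 CPM in females and 6.04, 16.9, 12.3, 10.6 and 9.69 CPM in males (log2 fold change 0.92, SE 0.36, edgeR adjusted p = 0.288, and 0.55 without male replicate 2). None of the 10 RAS and MAPK genes was under 0.05, with ARAF at the smallest p and a log2 fold change of -0.38. In 1 of the 58 genes, RPS6, the ribosomal protein phosphorylated downstream of mTOR, every male library lay above every female library, where 3.31% of all tested genes had libraries of the sexes that did not overlap.

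Among regulators of the IGF2BP genes, HMGA2, a chromatin protein known to drive IGF2BP2, had the largest log2 fold change, 2.29 (SE 1.16, edgeR adjusted p = 0.432). Its level was 0 to 1.79 CPM in females and 0.579, 11.8, 0.901, 1.99 and 1.65 CPM in male replicates 1 to 5, so that male replicate 2 alone stood apart, and without it the log2 fold change was 1.06. LIN28A and LIN28B, which block the maturation of a microRNA family that represses IGF2BP messages, had log2 fold changes of 0.01 and -0.45.

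**Figure D4:**
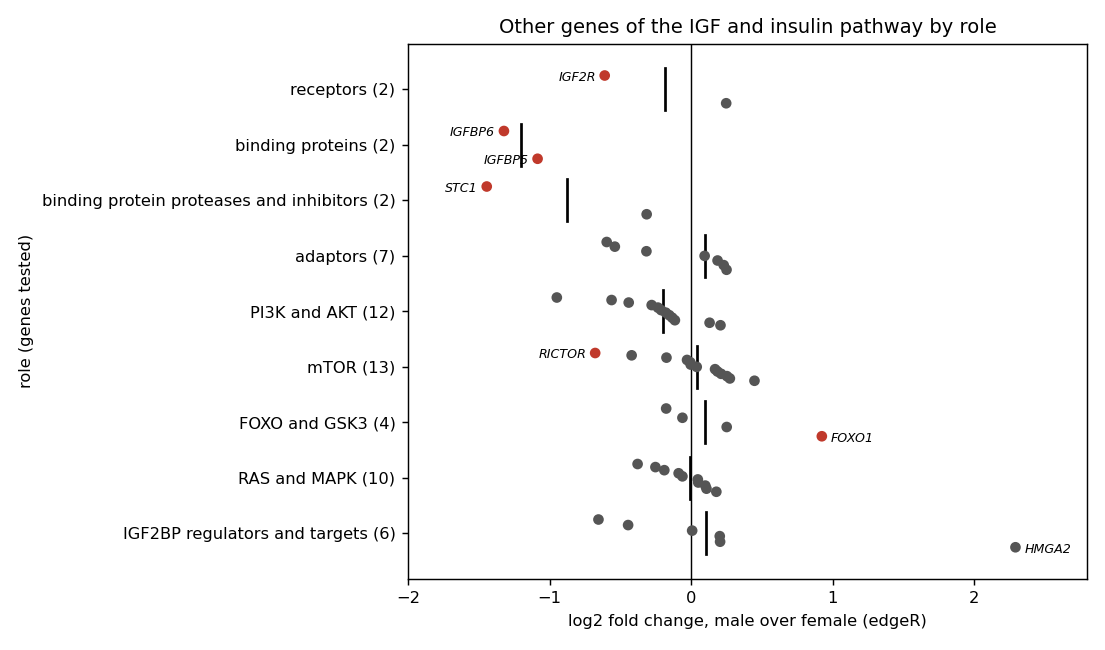
Log2 fold change (male over female, edgeR) of the 58 tested pathway genes by role, with a point for each gene, red where the unadjusted p was under 0.05, and a black tick for the median of the role. Most points lie near 0, IGF2R, IGFBP5, IGFBP6, STC1 and RICTOR lie lower in males, and FOXO1 and HMGA2 lie higher. None of them was called after adjustment in this fit.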

How the data were processed

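Reads came from full-length cDNA libraries (SMART-Seq) of 11 pools. The authors used fastp 0.20.0 for trimming, STAR 2.7.10b for alignment to the cow genome (ARS-UCD) and featureCounts for counting, and deposited raw whole-number counts per gene. RefSeq's ARS-UCD2.0 annotation gave positions for 30271 of the 32637 symbols.

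Counts were analysed with edgeR 4.0.16 in R 4.3.3. Genes were filtered by filterByExpr within sex and scaled by TMM factors, and males were compared with females by the quasi-likelihood test, with the library number (1 to 3) as a block, since the labels do not give the collection week that the study used. The embryos came from several collection weeks, but the labels do not tie libraries to them, so the p-values measure the spread between these pools. The quasi-likelihood test gives no SE of its own. Each SE was taken as the size of the log2 fold change divided by the square root of the test's F statistic. The 95% intervals were built from these SEs and are approximate. CPM use TMM-scaled library sizes, and log2 CPM a prior count of 2. The common biological coefficient of variation was 0.403. DESeq2 1.42.0, other scalings, filters and blocks, and fits without each library were the alternatives. The methods were also run on simulated counts with no effect of the library number and no library that stood apart. That run therefore cannot show how the methods deal with such effects in these data. IGF2 was compared by an exact permutation test over the libraries (python 3.11.15, scipy 1.17.1). The test of IGF2 on unscaled CPM was added after seeing the data.

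The genes, the pathway list and the marker lists were chosen with earlier results of these data known. Named are all 10 genes, a short list of pathway genes, the pathway gene with the smallest p in each role and the 2 genes most like each tested member, a few of which are not reported here. RPS6, HTRA1, IGFALS, CD44 and STC2 were named after their values were seen.

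Markers of the ICM were KLF17, LIN28A, NANOG, POU5F1, SOX2, SPIC and TDGF1, the last not among the symbols. Trophectoderm markers were CDX2, DAB2, GATA2, GATA3, KRT18, KRT8, LGALS3, PTGS2, TFAP2A and TFAP2C. For hypoblast, COL4A1, FOXA2, GATA4, GATA6, HNF4A, PDGFRA and SOX17 were used, and for cumulus cells AMH, CYP19A1, FOXL2, FSHR, HAS2, INHA and TNFAIP6.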

Additional observations from a re-analysis of the deposited data

Results flagged for a closer look

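Single libraries were compared with the rest of their sex by Dixon's test for the 9 tested members and 12 pathway genes, in 42 groups, of which chance alone would mark about 1 in 20. It marked 8, of which 3 were in male replicate 5 and 3 in female replicate 3. Over all tested genes it marked 9.32% of the groups, with 47.2% of those marks in male replicate 5 and 7.54% in female replicate 3. IGFBP7 was marked in both sexes, at 19.3 CPM in female replicate 3, where the nearest female was at 7.39, and at 18.8 CPM in male replicate 5, where the nearest male was at 3.73. IGF2BP1 was at 253 CPM in male replicate 5, beside 127 CPM in the nearest male, and IGF2BP2 at 17.5 CPM beside 8.03 CPM. IGF2BP3 was marked as low in female replicate 3, at 42.0 CPM beside 53.8 CPM.

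The other marks were on pathway genes. IGFBP6 was at 13.6 CPM in female replicate 4 (nearest 6.23), STC1 at 15.7 CPM in female replicate 3 (nearest 7.77), and HMGA2 at 11.8 CPM in male replicate 2 (nearest 1.99). What sets these libraries apart was not tested.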

How the results depend on the processing

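The 9 genes were refitted under 19 alternatives, and none was called in any of the 171 values, with 0.357 the lowest adjusted p, for IGF2BP2. The direction was the same in 143 values and reversed in 28. IGFBP2 and IGF2BP2 had the same direction in all 19. Without the replicate block the log2 fold change was -0.045 for INSR and -0.089 for IGFBP7, with DESeq2 without the library number -0.035 and -0.10, and with the title number as replicate block -0.36 and -0.64, where IGFBP3 was at 0.0085. Leaving out each library in turn gave -0.16 to 0.10 for IGF1R, -0.17 to 0.54 for INSR, -0.63 (without male replicate 1) to -0.0087 (without female replicate 6) for IGFBP2, -0.29 to 0.27 for IGFBP3, -0.37 to 0.54 for IGFBP4, -0.98 to 1.43 for IGFBP7, -0.10 to 0.25 for IGF2BP1, 0.28 to 0.65 for IGF2BP2 and -0.016 to 0.16 for IGF2BP3. Pathway genes called numbered 1 by DESeq2 with the library number, 3 without it, and 3 by edgeR when any gene with 1 count or more was kept, and in the last pair these were IGFBP5, HMGA2 and STC1. The cause was not tested. Over all genes the calls were 245, and 326 without the block, 132 with the title number, 655 and 739 by DESeq2 with and without the library number, and 743 (3.11%) with all counted genes kept. They ranged from 95 (without male replicate 3) to 364 (without male replicate 5) when each library was left out, with 105, 110, 114, 131, 148, 156 and 164 without female 2, female 5, male 2, female 4, female 6, male 1 and female 1. Same-numbered libraries deviated together only weakly, so the pairing rests on a number alone. The r was from -0.11 to 0.35 in 10 pairs by library number and from -0.11 to 0.35 in 5 pairs by title number. In the 20 pairs of other library numbers r was from -0.30 to 0.24. The mean r was -0.04 in those pairs and 0.07 in the pairs of the same library number. Low counts limit IGF2, INSR, IGFBP7, IGFBP4 and IGFBP2, whose lowest libraries held 0, 4, 5, 9 and 10 counts.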

Other observations

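A few genes around the IGF-binding proteins did not pass the filter on low counts and had most of their counts in 1 to 4 libraries. They were picked after their values were seen and were not tested. HTRA1, a secreted protease that cleaves IGF-binding proteins, had 24 counts in female replicate 1, 35 in female replicate 3 and at most 1 in every other library. IGFALS, the partner of the IGFBP3 complex in the blood, had 37 counts in male replicate 5 and at most 8 elsewhere. CD44 had 91 counts in male replicate 5, 0 in the other 4 males and 1 to 14 in the females. STC2, the relative of STC1, had 60 counts in male replicate 5, 36 in female replicate 6, 23 in male replicate 3 and 11 in female replicate 3.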
